A study of Saccharomyces cerevisiae x Saccharomyces paradoxus and Saccharomyces cerevisiae and Saccharomyces paradoxus with 10 samples.

Results

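The 8 genes described here, HEM1, HEM2, HEM3, HEM4, HEM12, HEM13, HEM14 and HEM15, encode the enzymes of heme biosynthesis in budding yeast, 1 enzyme for each step from glycine and succinyl-CoA to heme. They were chosen by name from a list of the pathway's enzymes. All 8 were found among the 4637 genes of the deposited table, and all 8 were among the 4544 genes that passed the filter on low values.

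Levels of mRNA, selected by its poly-A tail, were measured beside ribosome footprints (ribosome-protected fragments, RPF, here from the monosome fraction) in a hybrid of 2 yeast species and in its parents. The hybrid was a diploid cross of Saccharomyces cerevisiae BY4176 (MAT-alpha, lys2, ura::KAN) with Saccharomyces paradoxus CBS432 (MATa, ura::HYG). Its parents were a haploid S. cerevisiae and a diploid S. paradoxus strain, although 1 description, that of mRNA from mixed parents, speaks of haploid strains of both. All cultures began as single colonies and grew in YPD, a rich glucose medium, at 30 °C to an optical density of 0.5 to 0.7. This gave 4 settings (hybrid mRNA, hybrid RPF, parental mRNA, parental RPF) with 2 replicates each and 1 column per species or allele, 16 columns in all. The parental RPF libraries, and 1 of the parental mRNA libraries, came from a mixture of both parents. The sources used here do not say which replicate of the parental mRNA columns is the mixed one. The design text calls the hybrid replicates biological, but no label says that the parental replicates were separate cultures, so the p-values measure the spread between these libraries, which may be partly technical.

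Values are base-level coverage summed over the bases of a gene that the authors left unmasked, given here in ppm (the share of the column's total times 1000000). The column totals ran from 60.6 to 167 Mb of covered bases. The number of reads behind a value is unknown. Pairs of values are always given as replicate 1 and then replicate 2. The parents and the hybrid also differed in URA3, a uracil synthesis gene, which ran from 3.99 to 12.5 ppm in the hybrid columns and from 164 to 248 ppm in the parental ones. MF(ALPHA)2, an alpha-factor gene of haploid MAT-alpha cells, reached 623 to 1133 ppm in the columns of the S. cerevisiae parent and was at 1.53 ppm or below elsewhere. The URA3 state therefore changes with the step from parent to hybrid, and ploidy and mating type change with it at least for S. cerevisiae. Their part in any difference between parents and hybrid cannot be told apart from that step. A haploid S. cerevisiae parent was also set against an S. paradoxus parent described mostly as diploid. The parental ratio thus holds this difference beside that of species, and the 2 cannot be told apart.

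Heme is an iron-bearing ring built in a route that begins and ends in mitochondria and runs through the cytosol in between. In S. cerevisiae the amounts of some of its enzymes respond to oxygen and heme: HEM13 is induced when oxygen is short, and the repressor Rox1, whose own gene is activated by heme-bound Hap1, holds it down in air. The Hap2/3/4/5 complex, which binds CCAAT boxes and activates respiratory genes, has also been linked to HEM1.

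All 8 genes have a single coding exon in the R64 annotation of S. cerevisiae. HEM1 (YDR232W) lies on chromosome IV from 927452 to 929098 on the plus strand, HEM3 (YDL205C) on chromosome IV from 92762 to 93745 on the minus strand, HEM13 (YDR044W) on chromosome IV from 546642 to 547628 on the plus strand, and HEM12 (YDR047W) on the same chromosome and strand from 551860 to 552948. HEM2 (YGL040C) lies on chromosome VII from 419527 to 420555 on the minus strand, and HEM14 (YER014W) on chromosome V from 182600 to 184219 on the plus strand. HEM15 (YOR176W) and HEM4 (YOR278W) lie on the plus strand of chromosome XV, from 662401 to 663582 and from 842817 to 843644.

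The genes are regulated in part through the bases before their start codons, so 500 bases upstream of every start codon of R64 were searched on both strands for letters known from Rox1 (ATTGTTC), Hap1 (the paired CGG triplets of the Hap1 site) and the Hap2/3/4/5 complex (CCAAT). The Rox1 letters were found upstream of 5 of the 8 genes, against 11.8% of 6006 genes. The CCAAT box was found upstream of 7 of the 8, all but HEM12, against 62.4% of genes, and the Hap1 site upstream of none, against 0.350%. No match of one motif overlapped a match of another. The 6 matches of the Rox1 letters are shown in 30-base windows on the strand of the gene, 5′ to 3′, with the distance from the first base of the match to the start codon and the match, or its reverse complement GAACAAT, in capitals. Only S. cerevisiae letters are shown.
HEM1, 346 bases upstream, chrIV:927095-927124, plus strand: gctttttggtcATTGTTCatatatgaagaa
HEM1, 291 bases upstream, chrIV:927150-927179, plus strand: ttgccttgcccATTGTTCtgatccatgcgt
HEM3, 68 bases upstream, chrIV:93795-93824, minus strand: attaatatctaGAACAATagaaaaaaagaa
HEM13, 182 bases upstream, chrIV:546449-546478, plus strand: ttgctttgcccATTGTTCtcgtttcgaaag
HEM14, 83 bases upstream, chrV:182506-182535, plus strand: tataatagagaGAACAATagagatattcgc
HEM15, 448 bases upstream, chrXV:661942-661971, plus strand: gcagttttactGAACAATtttagaagtaaa
A match is a description of letters and does not show that a factor binds there.

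Levels between genes were compared per kilobase of unmasked bases. HEM2, the enzyme of the second step, was the most abundant of the 8 mRNAs in the S. cerevisiae parent, with a mean of 501 ppm per kb (490 and 512 by replicate), higher than 87.9% of genes tested. HEM12 followed at 352 and HEM15 at 266 ppm per kb. HEM4, HEM1, HEM14 and HEM3 closed the order at 141, 114, 113 and 110 ppm per kb, and the replicate ranges of the last 3 overlapped. In the S. paradoxus parent HEM12 and HEM2 shared the top at 578 ppm per kb each, HEM1 came next at 329, and HEM14 was last at 57.7 ppm per kb, above 22.8% of genes. By RPF the order differed: HEM1 or HEM2 led in every strain and allele, and HEM4 and HEM14 were the lowest 2. HEM1 reached 816 ppm per kb of RPF in the S. paradoxus parent, above 92.7% of genes, while HEM14 stood at 28.2 ppm per kb there.

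HEM1 varied most over the 16 columns, 7.47-fold from its lowest to its highest value in ppm, and HEM2 least, at 1.61-fold. HEM14, HEM12 and HEM4 spanned 4.94-, 4.60- and 4.56-fold, HEM15 3.46-fold, HEM13 3.05-fold and HEM3 2.55-fold. These spans mix mRNA with RPF columns.

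**Figure D1:**
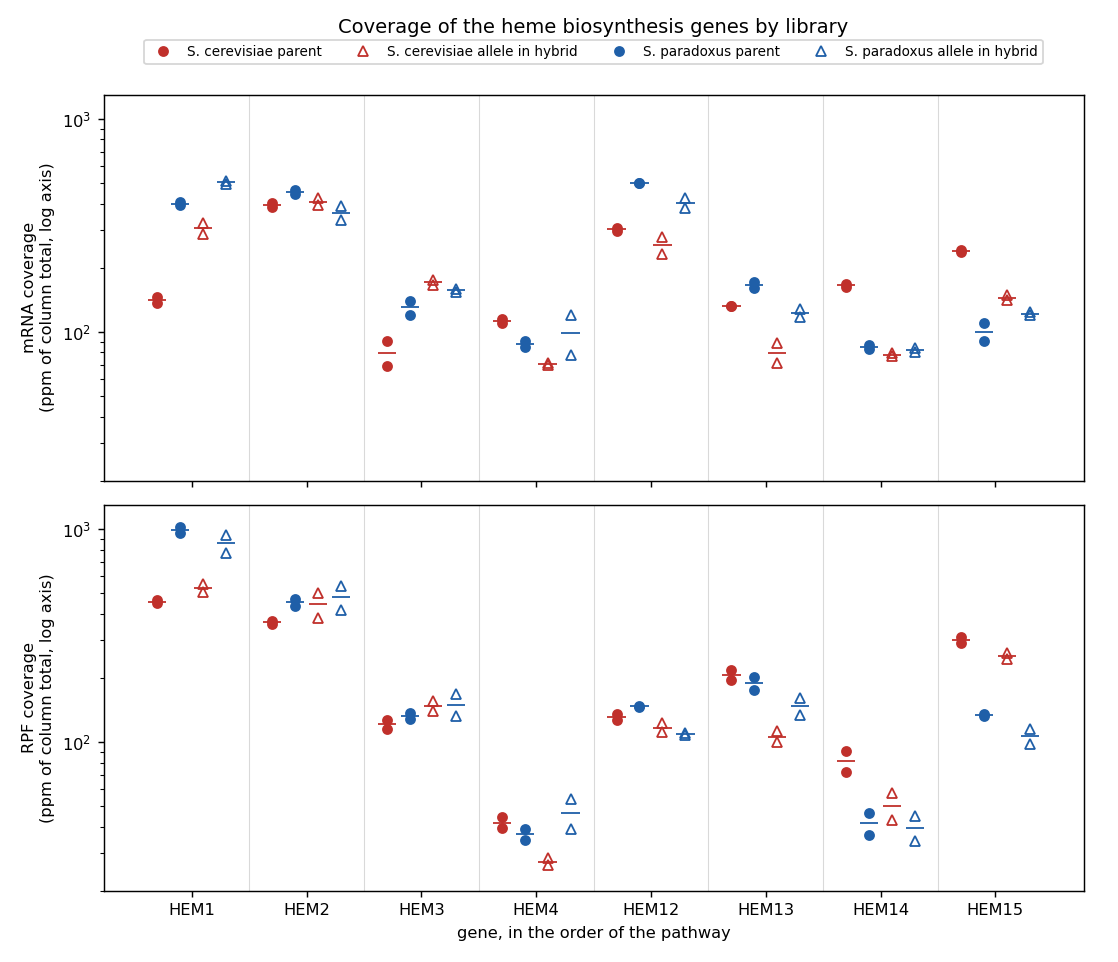
Coverage of the 8 genes in all 16 columns, in ppm of the column total on a log axis, with mRNA above and RPF below. Each point is 1 replicate, short lines are means, filled circles are parents and open triangles are the alleles in the hybrid; for HEM1 the S. cerevisiae parent stands lowest in both panels, at 137 to 145 ppm of mRNA.

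Between the parents the pathway did not shift as a block. HEM1, HEM3, HEM12 and HEM13 mRNA were lower in S. cerevisiae, and HEM14 and HEM15, the enzymes of the last 2 steps, were higher. A call here and below is a limma test on the log2 ratio of the species (S. cerevisiae over S. paradoxus) with a Benjamini-Hochberg adjusted p under 0.05 over all genes tested. By that rule 6 of the 8 genes were called, where 58.1% of all genes were (30.6% higher and 27.5% lower in S. cerevisiae), so the count itself is near the background. The median log2 ratio of the 8 was -0.27, against 0.04 over all genes. In the parental RPF 3 of the 8 were called, HEM14 and HEM15 higher and HEM1 lower, against 34.5% of all genes (15.1% higher, 19.4% lower).

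In the hybrid both alleles share 1 nucleus, so a difference between them is in cis. HEM1, HEM12, HEM13 and HEM4 had less mRNA from the S. cerevisiae allele, and none of the 8 was called higher, although HEM15 (0.25) and HEM2 (0.17) were above 0. These are 4 of 8 called, against 37.4% of all genes, of which 19.8% were lower from the S. cerevisiae allele and 17.6% higher. The median of the 8 was -0.27 and that of all genes -0.02. In the hybrid RPF HEM15 was higher and HEM1 lower from the S. cerevisiae allele, 2 of 8 against 13.9% of genes (6.58% higher, 7.33% lower).

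The trans difference is the parental log2 ratio minus the hybrid ratio. For mRNA it was called for 6 of the 8 genes, 3 in each direction, against 35.2% of all genes (18.8% higher, 16.4% lower), and for 4 with a shared spread. It favoured S. cerevisiae for HEM14, HEM15 and HEM4, at 1.03, 1.01 and 0.82 on the log2 scale, and S. paradoxus for HEM3, HEM1 and HEM2, at -0.84, -0.78 and -0.38. For RPF it was called for none of the 8 by limma, against 11.7% of genes, and 1 of the 8 (HEM4) had an unadjusted p under 0.05. The parental, cis and trans values of a gene are built on the same libraries, so they are set side by side and not correlated. In libraries from whole cultures, fewer cells that carry a transcript and less transcript per cell cannot be told apart.

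**Figure D2:**
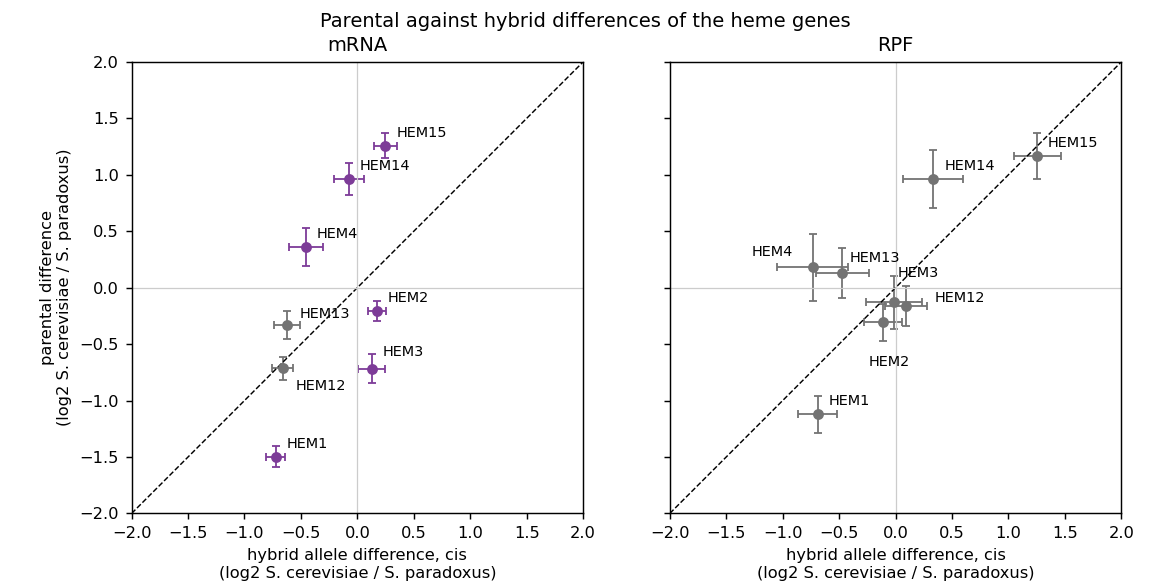
Parental log2 ratio (S. cerevisiae over S. paradoxus, y axis) against the hybrid allele ratio (x axis) for mRNA on the left and RPF on the right, with standard errors. On the dashed line both ratios are equal; the 6 genes with a called trans difference in mRNA are purple, HEM14, HEM15 and HEM4 above the line and HEM1, HEM2 and HEM3 below it, and no gene is called in RPF.

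HEM1 encodes 5-aminolevulinate synthase, the mitochondrial enzyme that opens the pathway. Its mRNA stood at 145 and 137 ppm in the S. cerevisiae parent and at 405 and 393 ppm in S. paradoxus. The hybrid alleles stood at 324 and 287 ppm (S. cerevisiae) and at 511 and 496 ppm (S. paradoxus). In both backgrounds the S. paradoxus values lay above the S. cerevisiae ones with no overlap. The parental difference was 2.83-fold (log2 -1.50 ± 0.09 SE, limma adjusted p = 1.4e-10), the allele difference in the hybrid 1.65-fold (-0.72 ± 0.08, limma adjusted p = 2.3e-06), and the trans remainder -0.78 ± 0.12 (limma adjusted p = 8.9e-05). HEM1 is thus the only 1 of the 8 genes whose mRNA was called lower in S. cerevisiae in all of these comparisons. All 3 calls held under each of the 18 alternatives tried.

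HEM1 RPF gave the same order of species at a smaller parental distance. The parents held 447 and 463 ppm in S. cerevisiae and 1022 and 957 ppm in S. paradoxus, and the hybrid alleles 505 and 551 ppm against 773 and 939 ppm. The parental ratio was -1.12 ± 0.16 on the log2 scale (limma adjusted p = 3.9e-05) and the hybrid ratio -0.69 ± 0.17 (limma adjusted p = 0.011). The call in the hybrid was lost without either hybrid RPF replicate, where the ratio was -0.77 without the first and -0.61 without the second, and with no trend in the prior spread (limma adjusted p = 0.058). The trans difference of -0.43 was not called, with a 95% interval from -0.92 to 0.07.

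HEM2 encodes 5-aminolevulinate dehydratase, which joins 2 molecules of 5-aminolevulinate into porphobilinogen. Its mRNA was 384 and 401 ppm in the S. cerevisiae parent, 443 and 463 ppm in S. paradoxus, 425 and 392 ppm for the S. cerevisiae allele and 390.2 and 335 ppm for the S. paradoxus allele. The parents differed in one direction and the alleles in the other, and neither difference was called. The parental ratio was -0.21 (95% interval -0.40 to -0.02) and the hybrid ratio 0.17 (95% interval 0.0015 to 0.35). The difference between them was called at -0.38 ± 0.12 (limma adjusted p = 0.022). That call was lost without either parental mRNA replicate or without the second hybrid mRNA replicate, where the value was -0.33, and also with a spread shared by all settings or with no trend in the prior spread (limma adjusted p = 0.13 and 0.060). In RPF HEM2 ran from 359 to 540.4 ppm over all columns, and no comparison was called.

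HEM3 encodes porphobilinogen deaminase. Its mRNA was lowest in the S. cerevisiae parent, at 90.2 and 68.8 ppm, against 120.3 and 140.0 ppm in S. paradoxus. In the hybrid the alleles lay closer together, at 175 and 166 ppm from S. cerevisiae and 158 and 154 ppm from S. paradoxus. The parental ratio was -0.72 ± 0.13 (limma adjusted p = 0.00014), the hybrid ratio 0.13 with a 95% interval from -0.12 to 0.38, and the trans difference -0.84 ± 0.18 (limma adjusted p = 0.0012). Parental mRNA replicate 2 weighed on both: without it they were -0.41 and -0.54 (limma adjusted p = 0.043 and 0.046), and without replicate 1 they were -1.02 and -1.15. In RPF the parental difference was not called: the S. cerevisiae parent held 127 and 115 ppm and S. paradoxus 137 and 127 ppm, a log2 ratio of -0.13 with a 95% interval from -0.62 to 0.36.

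HEM4 encodes uroporphyrinogen III synthase, which closes the ring. Among the 8 genes it had the most diverged coding sequence, with 15.0% of bases different between the species. Its mRNA was 109 and 115 ppm in the S. cerevisiae parent against 84.5 and 90.4 ppm in S. paradoxus, and 69.6 and 71.2 ppm against 78.1 and 120.0 ppm in the hybrid. The order of the species turned round between parents and hybrid. The hybrid ratio was called at -0.46 ± 0.15 (limma adjusted p = 0.024) and the trans difference at 0.82 ± 0.23 (limma adjusted p = 0.0088), while the parental ratio of 0.36 was not (95% interval 0.01 to 0.71). Both calls leaned on hybrid mRNA replicate 2, without which the hybrid ratio was -0.16 and the trans difference 0.52, neither of them called. Both were also lost with a spread shared by all settings (limma adjusted p = 0.22 and 0.12). The trans call was also lost without either parental mRNA replicate, at 0.81 without the first and 0.83 without the second. HEM4 RPF was low, at 26.3 to 53.9 ppm, and no comparison of it was called. Its RPF ratio was -0.74 in the hybrid (95% interval -1.39 to -0.08) and 0.18 in the parents (-0.44 to 0.80). The trans difference in RPF was 0.92 (95% interval 0.01 to 1.82). With a shared spread the hybrid RPF ratio was called (limma adjusted p = 0.032).

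HEM12 encodes uroporphyrinogen decarboxylase, the last of the 4 cytosolic enzymes that precede the oxidation steps. Its mRNA was 307 and 299 ppm in the S. cerevisiae parent and 497 ppm in both replicates of S. paradoxus. The hybrid alleles had 279 and 232 ppm against 427 and 380 ppm. The ratio was nearly equal in both backgrounds, at -0.72 ± 0.10 between parents (limma adjusted p = 7.5e-06) and -0.66 ± 0.09 between alleles (limma adjusted p = 1.7e-05). The trans difference was -0.05 with a 95% interval from -0.34 to 0.23, and both calls held under all 18 alternatives. In RPF the species lay closer: 127 and 136 ppm against 147 and 146 ppm in the parents, and 111 and 122 ppm against 108 and 110.2 ppm in the hybrid. The RPF ratios of -0.16 and 0.09 were not called.

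HEM13 encodes coproporphyrinogen oxidase, which needs molecular oxygen. Its mRNA was 133 and 132 ppm in the S. cerevisiae parent against 172 and 161 ppm in S. paradoxus, and 71.2 and 88.3 ppm against 128 and 117 ppm in the hybrid. S. cerevisiae was lower in both backgrounds with no overlap. The allele difference was -0.63 ± 0.11 (limma adjusted p = 0.00030) and the parental one -0.33 ± 0.13 (limma adjusted p = 0.032), with a trans difference of 0.30 that was not called (95% interval -0.06 to 0.65). The parental call was lost without either parental mRNA replicate (-0.28 without the first, -0.37 without the second), and the allele call without hybrid mRNA replicate 1 (-0.41). The parental call was also lost with a shared spread or no trend (limma adjusted p = 0.13 and 0.068). HEM13 RPF was 217 and 195 ppm against 201 and 176 ppm in the parents and 99.6 and 112 ppm against 161 and 133 ppm in the hybrid. Neither RPF ratio was called: 0.13 in the parents and -0.47 in the hybrid, the latter with a 95% interval from -0.96 to 0.02.

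HEM14 encodes protoporphyrinogen oxidase of the mitochondrial inner membrane. Only the S. cerevisiae parent stood apart: its mRNA was 168 and 163 ppm, against 83.4 and 86.6 ppm in S. paradoxus, 76.8 and 79.5 ppm for the S. cerevisiae allele and 80.6 and 84.0 ppm for the S. paradoxus allele. The parental difference was 1.95-fold (log2 0.96 ± 0.14, limma adjusted p = 1.3e-05), the hybrid ratio -0.07 (95% interval -0.34 to 0.20) and the trans difference 1.03 ± 0.19 (limma adjusted p = 0.00041). RPF showed the parental difference too, with 90.8 and 71.9 ppm in S. cerevisiae against 36.6 and 46.4 ppm in S. paradoxus (0.96 ± 0.25, limma adjusted p = 0.0066). Without parental RPF replicate 1 that ratio was 0.63 and not called. The hybrid alleles stood at 42.8 and 57.5 ppm against 34.1 and 45.1 ppm in RPF, so their ranges overlapped between libraries. Within each library the S. cerevisiae allele was higher, by 0.32 and 0.35 on the log2 scale. The ratio of 0.33 was not called (95% interval -0.22 to 0.89).

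HEM15 encodes ferrochelatase, which inserts iron to complete heme. Its mRNA was 237 and 241 ppm in the S. cerevisiae parent against 110.2 and 90.2 ppm in S. paradoxus, and 141 and 148 ppm against 124 and 119 ppm in the hybrid. The parental difference was 2.39-fold (log2 1.26 ± 0.11, limma adjusted p = 2.7e-08), the hybrid ratio 0.25 ± 0.10 (limma adjusted p = 0.065, not called) and the trans difference 1.01 ± 0.15 (limma adjusted p = 5.0e-05). In RPF the S. cerevisiae values were high in both backgrounds, at 312 and 290.5 ppm against 132 and 136 ppm in the parents and 246 and 262 ppm against 97.2 and 115 ppm in the hybrid. The RPF ratio was 1.17 ± 0.20 between parents (limma adjusted p = 0.00021) and 1.26 ± 0.21 between alleles (limma adjusted p = 0.00058), and the trans difference in RPF was -0.09 with a 95% interval from -0.70 to 0.52. Both RPF calls held under all 18 alternatives.

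The trans difference is also the change of the S. paradoxus allele from parent to hybrid set against that of the S. cerevisiae allele. Most of the called changes of the heme mRNAs were on the S. cerevisiae side, where ploidy and mating type change too, with a part that was not tested. From parent to hybrid its HEM1 and HEM3 mRNA rose, by 1.11 ± 0.12 and 1.11 ± 0.15 on the log2 scale (limma adjusted p = 3.6e-07 and 6.5e-06), both 2.16-fold. HEM14, HEM13, HEM15 and HEM4 fell by 1.08, 0.73, 0.72 and 0.67 (limma adjusted p from 2.7e-05 to 0.0025). These are 6 of 8 called, 2 higher and 4 lower in the hybrid, against 48.5% of all genes (20.2% higher, 28.3% lower). The median of all genes in this comparison was itself -0.13, and moved to -0.01 with median-of-ratios scaling, under which these 6 calls stood. HEM2 and HEM12 were not called, at 0.06 and -0.25.

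On the S. paradoxus side 2 of the 8 were called in mRNA, against 28.4% of genes (13.1% higher, 15.3% lower): HEM1 was higher in the hybrid by 0.33 ± 0.11 (limma adjusted p = 0.032) and HEM13 lower by -0.44 ± 0.14 (limma adjusted p = 0.024). Both calls were lost with a shared spread, and that of HEM1 also with own libraries only or no trend. HEM1 lost its call when any 1 of the 4 mRNA replicates was left out, and HEM13 without hybrid mRNA replicate 2 or either parental one, with values from 0.31 to 0.36 and from -0.49 to -0.37. Thus HEM13 mRNA was called lower in the hybrid for both alleles and HEM1 mRNA higher for both. In RPF HEM13 from S. cerevisiae was lower in the hybrid by -0.96 ± 0.22 (limma adjusted p = 0.0046), the only call of the 8 against 20% of genes (9.88% lower). None of the 8 was called for S. paradoxus RPF by limma, against 13.7% of genes, and 1 (HEM12) had an unadjusted p under 0.05. The S. cerevisiae HEM1 and HEM3 RPF values moved by 0.21 and 0.28, with 95% intervals from -0.18 to 0.60 and from -0.21 to 0.78. Whether these changes differ between mRNA and RPF was not tested.

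**Figure D3:**
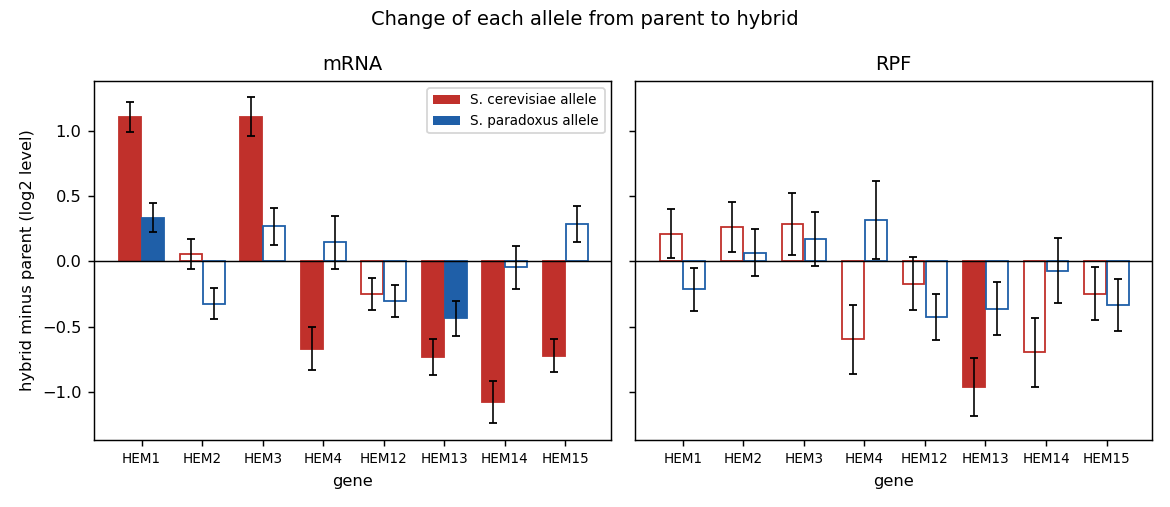
Change of each allele's level from parent to hybrid (log2, hybrid minus parent) with standard errors, for mRNA on the left and RPF on the right. Filled bars were called at an adjusted p under 0.05 and open bars were not; on the mRNA side HEM1 and HEM3 from S. cerevisiae stand at 1.11, and HEM14 at -1.08.

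RPF relative to mRNA separated the 8 genes within every strain and allele. In the S. cerevisiae parent HEM1 had 3.22 times as much RPF as mRNA in ppm (log2 1.69, replicates 1.62 and 1.75), a ratio above that of 99.2% of genes tested, and in S. paradoxus 2.47 times (above 98.6%). In the hybrid the HEM1 alleles stood at 0.79 and 0.76. HEM12, HEM4 and HEM14 lay at the other end, from -1.88 to -0.65. In S. cerevisiae HEM4 was lowest, at -1.42 in the parent and -1.35 in the hybrid. In S. paradoxus it was HEM12, at -1.76 in the S. paradoxus parent and -1.88 for its allele in the hybrid, above 12.3% and 12.7% of genes, against -1.20 and -1.12 for HEM12 of S. cerevisiae. HEM13 was above 0 in every strain and allele, from 0.18 to 0.64.

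The difference of this ratio between the species, here the RPF log2 ratio minus the mRNA log2 ratio, is a test of divergence in RPF per mRNA. HEM15 was the only 1 of the 8 called in the hybrid, against 1.78% of genes (0.88% higher): the S. cerevisiae allele had a log2 RPF over mRNA of 0.81 and the S. paradoxus allele of -0.20, a difference of 1.01 ± 0.23 (limma adjusted p = 0.034). That call was lost with a shared spread, with no trend, and without either hybrid RPF, hybrid mRNA or parental RPF replicate, with values from 0.93 to 1.09 and adjusted p up to 0.24 over all alternatives. In the parents the HEM15 values were 0.33 and 0.42, a difference of -0.09 with a 95% interval from -0.57 to 0.39. HEM12 differed in the same direction in both backgrounds, by 0.76 ± 0.21 in the hybrid (limma adjusted p = 0.069) and 0.55 ± 0.21 in the parents (limma adjusted p = 0.13), neither of them called. None of the 8 was called in the parents by limma, against 5.35% of genes, and 2 (HEM3 and HEM12) had an unadjusted p under 0.05.

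**Figure D4:**
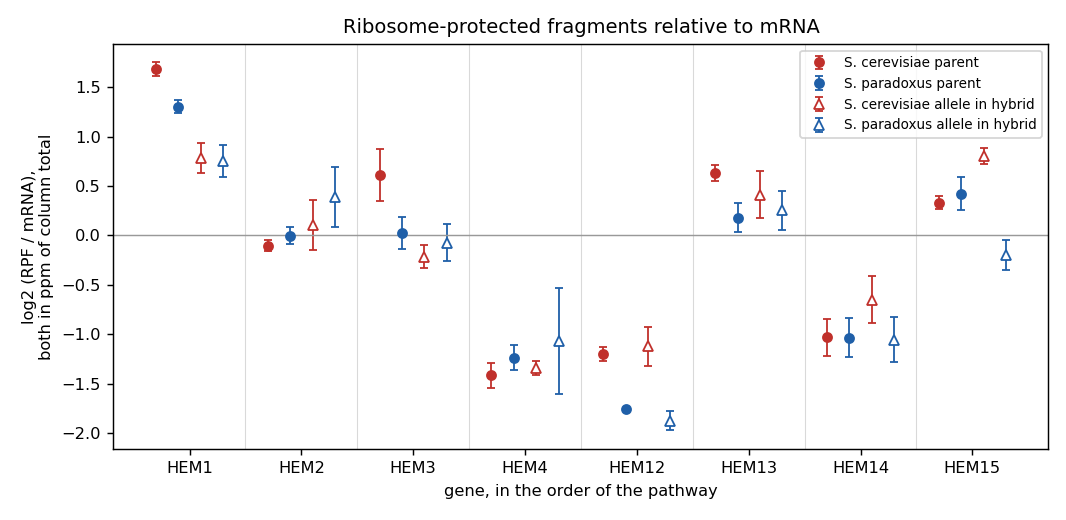
Log2 of RPF over mRNA level, both in ppm of the column total, for each gene. Filled circles are parents and open triangles are hybrid alleles, each the mean of 2 replicates. Bars run to the lowest and highest value over all pairings of an RPF with an mRNA replicate. HEM1 is highest in both parents, HEM12 from S. paradoxus lowest, and HEM15 splits by allele in the hybrid, at 0.81 and -0.20.

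The authors' deposited table gives calls on the same libraries by a permutation test, for genes with at least 100 reads. The mRNA cis calls of the authors' deposited table named 6 of the 8 genes, with HEM2 and HEM15 higher from S. cerevisiae and HEM1, HEM4, HEM12 and HEM13 higher from S. paradoxus, against 78.0% of all genes given a p in the authors' deposited table. The mRNA trans calls of the authors' deposited table named HEM4, HEM14 and HEM15 towards S. cerevisiae and HEM1, HEM2 and HEM3 towards S. paradoxus, the same 6 genes and directions as above. That is 6 of the 7 given a p (HEM12 has none), against 93.9% of all genes given one. In cis mRNA, HEM2 and HEM15 were called there but not here (limma adjusted p = 0.10 and 0.065). For translation in cis the authors' deposited table called 5 of the 8, all given a p, against 54.0% of genes given one: HEM12, HEM14 and HEM15 towards S. cerevisiae, and HEM2 and HEM4 towards S. paradoxus. For translation in trans the authors' deposited table called HEM1, HEM3, HEM12 and HEM13 towards S. cerevisiae and HEM15 towards S. paradoxus. That is 5 of the 6 given a p, against 47.8% of all genes given one. Of the 5 genes the authors called for translation in cis, limma called only HEM15 here. A trans comparison of RPF over mRNA was not run here.

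Genes around the pathway were counted from lists of related genes. Of 11 genes that supply precursors and iron, 4 were higher and 2 lower in S. cerevisiae in parental mRNA, with a list median of 0.17. These and the list counts that follow stand beside 30.6% of all genes higher and 27.5% lower in parental mRNA. YFH1 (frataxin, a mitochondrial iron protein) was higher by 0.93 ± 0.15 (limma adjusted p = 4.6e-05), LSC1 (a subunit of succinyl-CoA ligase) by 0.58 ± 0.10 (limma adjusted p = 9.2e-05) and LPD1 (dihydrolipoamide dehydrogenase) by 0.56 ± 0.09 (limma adjusted p = 4.0e-05). KGD1, a subunit of the alpha-ketoglutarate dehydrogenase that makes succinyl-CoA, was lower at -0.41 ± 0.10 (limma adjusted p = 0.0019). Its parental RPF log2 ratio exceeded its mRNA ratio by 0.80 ± 0.21 (limma adjusted p = 0.031), and it was not called in parental RPF. There LSC1 and YFH1 were called higher and FLX1 lower, 2 and 1 of 11, against 15.1% and 19.4% of all genes.

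Of 10 genes that handle heme or other tetrapyrroles, 5 were lower and 2 higher in parental mRNA, with a median of -0.34, and 5 were lower and 0 higher in trans mRNA, where 16.4% of all genes were lower and 18.8% higher. HMX1 (heme oxygenase, which breaks heme down) was lower in S. cerevisiae by -2.10 ± 0.15 (limma adjusted p = 1.5e-09) in parental mRNA, of which -0.59 was in cis and -1.51 in trans, and by -3.00 ± 0.27 in parental RPF (limma adjusted p = 1.0e-07). CYC3, which attaches heme to cytochrome c, was lower at -1.23 ± 0.17 and COX10, which makes heme O, at -0.97 ± 0.15 (limma adjusted p = 7.0e-06 and 3.3e-05). MET8, an enzyme of siroheme synthesis, went the other way, higher by 0.81 ± 0.21 in parental mRNA (limma adjusted p = 0.0026) and by 2.07 ± 0.37 in parental RPF (limma adjusted p = 0.00028).

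Of 14 genes for heme proteins, 9 were lower and 1 higher in S. cerevisiae in parental mRNA, with a median of -1.07 against 0.04 for all genes, and 9 were lower and 2 higher in trans mRNA (16.4% and 18.8% of all genes). CYC1 (cytochrome c) stood at -2.76 ± 0.10, CYB5 (cytochrome b5) at -2.02 ± 0.11 and CYT1 (cytochrome c1) at -1.79 ± 0.09 (limma adjusted p from 1.1e-13 to 3.6e-11). The gene that was higher was YHB1, a flavohemoglobin, at 2.16 ± 0.09 between parents (limma adjusted p = 6.3e-13), with -0.94 in cis and 3.10 in trans. From parent to hybrid 6 of the S. cerevisiae heme-protein mRNAs were higher and 4 lower, where 20.2% and 28.3% of all genes were, and CYC1 was higher by 2.23 ± 0.13 (limma adjusted p = 9.9e-11).

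Of the 8 regulators tested, 3 were higher and 2 lower in parental mRNA, with a median of 0.11. HAP4, the activating subunit of the Hap2/3/4/5 complex, was lower in S. cerevisiae at -1.39 ± 0.11 (limma adjusted p = 2.7e-09) with a trans difference of -1.56 ± 0.14 (limma adjusted p = 1.1e-07) and an allele ratio of 0.18 that was not called. HAP3 and HAP2, DNA-binding subunits of the same complex, were higher by 0.96 ± 0.26 and 0.71 ± 0.20 (limma adjusted p = 0.0037 and 0.0046). UPC2, a sterol regulator, was lower at -0.92 ± 0.14 (limma adjusted p = 2.3e-05). In parental RPF 0 of the 8 regulators were called higher and 3 lower, against 15.1% and 19.4% of all genes. HAP5, another subunit of the complex, was among the lower ones, at -1.24 ± 0.30 (limma adjusted p = 0.0039). Its hybrid allele ratio in mRNA was -0.85 ± 0.15 (limma adjusted p = 0.00030). HAP1, ROX1 and MOT3 were not found by name among the genes of the authors' deposited table, so they were not analysed here. Of 6 hypoxic genes tested, 2 were higher and 1 lower in parental mRNA, with a median of 0.54. SUR2, a sphingolipid hydroxylase, was higher by 0.95 ± 0.13 (limma adjusted p = 6.0e-06). AUS1, a sterol transporter, was higher by 0.77 ± 0.13 (limma adjusted p = 4.4e-05) at a mean level of 3549 ppm. NCP1, a cytochrome P450 reductase, was lower at -0.27 ± 0.10 (limma adjusted p = 0.027). In parental RPF 4 of the 6 were called higher, AUS1, SUR2 and SUT1 among them, and 0 lower. The RPF median was 0.96, and 15.1% of all genes were higher and 19.4% lower.

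Over the 16 columns the log2 levels of the 8 genes did not follow 1 pattern. Likeness was measured as Pearson's r of log2 ppm after each column was centred on its own median, which lay at 6.99 to 7.10 log2 ppm in mRNA columns and at 6.16 to 6.30 in RPF columns. Centring raises every gene's RPF values against its mRNA values, and r without it, computed after the data were seen, differed widely. HEM1 with HEM3 was the most alike pair when centred (r = 0.90) but had 0.59 without centring, and HEM1 with HEM2 had 0.84 and 0.34. HEM4 with HEM12 had 0.51 when centred and 0.86 without, and HEM1 with HEM14 -0.56 and -0.91. The columns also share libraries, so these values are descriptions. By both measures the gene most like HEM13 was SCW10 (0.97 centred, 0.91 not), for HEM14 it was YNL217W (0.95 and 0.98) and for HEM15 it was PDA1 (0.97 and 0.95). For the other 5 the nearest gene changed with the centring: when centred it was EGD1 for HEM2 (0.97), RRP5 for HEM3 (0.97), KIN82 for HEM4 (0.90), YNL165W for HEM12 (0.93) and a gene with no standard name for HEM1 (0.99). For none of the 8, by either measure, was it another of them.

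The coding sequences of the 8 genes differed between the species at 6.90% (HEM13) to 15.0% (HEM4) of bases, against a median of 10.1% over all genes in the authors' deposited table. HEM4 and HEM14 (11.7%) lay above that median and the other 6 below it. HEM13 had the lowest rate of amino acid change (KA 0.00261, lower than all but 1.55% of genes) and HEM4 the highest of the 8 (KA 0.0717). The deposited promoter divergence, upstream of the transcription start, was available for 7 of the 8, lowest for HEM1 at 6.53% and highest for HEM12 at 18.9%, all below the median of 20.5%. HEM2 and HEM13 carry the table's TATA mark, which 14.3% of genes carry. The unmasked bases were equal in number for both species in all genes but HEM1, which had 1240 in S. cerevisiae and 1213 in S. paradoxus.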

How the data were processed

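Poly-A mRNA and RPF libraries were sequenced from the hybrid and its parents in 10 samples. The deposited values used here are coverage (signal), summed by the authors over the unmasked bases of each gene, with the S. paradoxus columns scaled to the S. cerevisiae total, per the file headers and values. CASAVA 1.8.2 and Bowtie 0.12 are named per the submitters' processing notes, and genome builds are not given in the sources used here. This table has 24 further columns of per-sample values, which were not used. The 3 blank lines were dropped, and 235 genes carry no systematic name. The authors' deposited p-values come from their permutation test for genes with at least 100 reads, and KA and KS (a score per site) and divergence shares were deposited by the authors.

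Coverage was divided by the column total (ppm), 0.5 ppm was added, and log2 ratios of S. cerevisiae over S. paradoxus were taken per replicate. Genes under a mean of 3 ppm were left out. limma 3.58.1 in R 4.3.3 was fitted to all genes with 1 mean for each of 4 settings, weighted by each setting's own replicate spread (SD of the log2 ratio 0.177 for hybrid and 0.195 for parental mRNA, 0.363 for hybrid and 0.347 for parental RPF), with an intensity trend and two-sided Benjamini-Hochberg adjusted p under 0.05, leaving 4 residual degrees of freedom. Hybrid minus parent changes used log2 levels of 1 species. The ratio fits were run on simulated data drawn with the replicate spread of these libraries. The hybrid minus parent fits were not. Such a simulation does not check the calls made on the real data. All 12 comparisons were recomputed under up to 18 alternatives. Log2 values with a pseudocount understate changes of low genes. Since the counts of reads are not known, no counting interval was given. Pattern likeness is Pearson's r of log2 ppm with each column centred on its own median, and, added after the data were seen, without that centring. All members are named, and other list genes were taken from the 4 largest called changes of a list in a comparison, at 10 ppm or more. The members, lists, weights and tests were chosen with earlier results of these data known. Python 3.11.15 was used for the rest.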

Additional observations from a re-analysis of the deposited data

Results flagged for a closer look

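For 6 of the 8 heme genes the S. cerevisiae over S. paradoxus mRNA ratio differed between the parents and the hybrid by limma's test of that difference (parental minus hybrid, log2), where 35.2% of all genes tested did. The differences were -0.7764 for HEM1, -0.3815 for HEM2, -0.8439 for HEM3, 0.8166 for HEM4, 1.0335 for HEM14 and 1.0097 for HEM15. HEM2 and HEM4 lost the call without hybrid mRNA replicate 2 (-0.33 and 0.52) and without either parental mRNA replicate. Both lost it with a spread shared by all settings, under which 4 of the 8 were called, and HEM2 with no trend in the prior spread. The URA3 state also differs between the parents and the hybrid, and ploidy and mating type differ at least for S. cerevisiae. Their part cannot be told apart from the step from parent to hybrid.

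For HEM15 the hybrid allele ratio was larger in RPF than in mRNA by 1.0072 on the log2 scale, a difference called by limma for 1.78% of genes. The call was lost with a shared spread, with no trend, and when either hybrid mRNA, hybrid RPF or parental RPF replicate was left out. The S. cerevisiae allele was above the S. paradoxus allele in RPF in both replicates.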

How the results depend on the processing

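No direction of a member's called value reversed under any alternative. Outside the settings that leave out a replicate, 905 of 928 member values kept their side of the threshold, 13 lost the call and 10 gained it. With a replicate left out, 733 of 768 did so, 26 lost the call, 6 gained it and 3 moved. The count of members called in cis RPF fell from 2 to 1 with no trend in the prior spread. In the hybrid RPF over mRNA ratio it went from 1 to 0 with a spread shared by all settings, to 0 with no trend, and to 2 when only the comparison's own libraries entered. For S. cerevisiae RPF (hybrid minus parent) it was 3 with a shared spread and 2 with median-of-ratios scaling, in place of 1. For S. paradoxus mRNA it was 0 with a shared spread, 1 with own libraries and 1 with no trend, in place of 2, and for S. paradoxus RPF 1 with a shared spread, in place of 0. Leaving out 1 replicate at a time gave 1 to 2 members for cis RPF, 0 to 1 for the hybrid and for the parental RPF over mRNA ratio, and 0 to 2 for S. paradoxus mRNA from parent to hybrid. A setting left with 1 replicate keeps the weight it had with both, so the lone library is assumed to vary like the full data. The cause of these shifts was not tested.

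A shared spread left 3 of the 8 members called for cis mRNA, 5 for parental mRNA and 4 for trans mRNA. It changed the counts of all genes called: 600 in place of 1698 for cis mRNA, 1752 in place of 2639 for parental mRNA, 552 in place of 1599 for trans mRNA, 1175 in place of 632 for cis RPF, 1019 in place of 533 for trans RPF, 20 in place of 81 for the hybrid ratio of RPF over mRNA, 1324 in place of 2202 and 724 in place of 1292 for S. cerevisiae and S. paradoxus mRNA from parent to hybrid, and 944 in place of 623 for S. paradoxus RPF. With no trend they were 412 for cis RPF, 247 for trans RPF, 29 for the hybrid and 87 (in place of 243) for the parental RPF over mRNA ratio, and 347 for S. paradoxus RPF. With 1 replicate left out they ran from 793 to 1816 for cis mRNA, from 990 to 1714 for trans mRNA, from 182 to 657 for cis RPF, from 236 to 589 for trans RPF, from 723 to 1663 for parental RPF, from 12 to 225 for the hybrid and from 58 to 301 for the parental RPF over mRNA ratio, from 1434 to 2318 and from 441 to 899 for S. cerevisiae mRNA and RPF, and from 674 to 1372 and from 257 to 632 for S. paradoxus mRNA and RPF. Median-of-ratios scaling moved the share of all calls that were higher from 41.7% to 55.0% for S. cerevisiae mRNA from parent to hybrid, and from 40.3% to 61.7% for the parental RPF over mRNA ratio, where the median of all genes went from -0.09 to 0.03.

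The replicate numbers are shared between settings. Over 4544 genes the replicate differences of same-numbered libraries correlated by 0.18 for parental mRNA with parental RPF. For the other pairs of settings the values ran from -0.05 to 0.02. No label says which parental mRNA replicate is the mixed one, so whether same-numbered libraries share more than a number cannot be told from this. A fit with the replicate number as a block changed none of the 96 member calls (6 of 8 for parental mRNA with the replicate block). Which parental mRNA replicate is the mixed library, and the reads behind each value, limit how far the parental values can be read.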
